A study of Mus musculus with 6 samples.

Results

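Genes whose symbol starts with Kcn encode potassium channels and the proteins bound to them. Their transcripts were measured on Affymetrix arrays in whole embryonic mouse stomach at stage E13.5, and 92 of the 19938 genes tested had such a symbol. The members were chosen by symbol, and each gene was represented by the probe set, annotated to that symbol alone, with the highest mean over the 6 arrays. That choice was selected on a level and not on a difference between the groups, and the family was picked with earlier results of these data known. Of the 92 genes, 3 had a choice between 2 probe sets, namely Kcna2, Kcnh8 and Kcnma1.

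There were 3 arrays of embryos with the alleles R26-SmoM2 and Nkx3.2Cre, called SmoM2, and 3 of embryos labelled wild type. SmoM2 is a form of Smoothened that signals without a hedgehog ligand, and it is switched on from the Rosa26 locus where the Cre recombinase is made. Nkx3-2 drives that recombinase and is a gene of the stomach mesenchyme, and cells of other lineages in the organ need not carry the active transgene. No control with one of these alleles alone is among the samples. The labels give no strain, sex, litter or pooling of the embryos, and do not say that the arrays came from separate animals. The p-values therefore reflect only how far these samples scatter, which may be technical.

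Potassium channels let potassium leave the cell and hold the membrane near its resting voltage. In gut smooth muscle they set how readily a cell fires and contracts, and in gastric epithelium some of them recycle potassium beside the acid pump. Pore-forming subunits fall into voltage-gated, calcium- and sodium-activated, inward rectifier and tandem-pore classes. Accessory proteins have no pore and change the gating, trafficking or inactivation of the pore subunits.

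Some features varied between the arrays, only in part along with the groups. The mean log2 signal of Eif2s3y, Kdm5d and Uty, which are Y-linked, ran from 8.71 to 9.27 in SmoM2 and from 9.07 to 10.37 in wild type, and the Xist signal of wild type 1 was 7.11, below the 11.43 or more of the other 5 arrays. By clustering on correlations over all probe sets, the arrays were also cut into 2 sets. One held SmoM2 1, SmoM2 3 and wild type 3, and the other SmoM2 2, wild type 1 and wild type 2. Correlations were from 0.993 to 0.995 within the sets and from 0.983 to 0.992 between them. The cut was set to give 2 sets and used these same correlations, so they are no separate evidence for the split. No label gives a batch.

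Of the 92 genes, 4 were higher and 2 lower in SmoM2 at an adjusted p under 0.05 in limma. Kcnd3, Kcng1, Kcne3 and Kcnmb1 rose, and Kcnab1 and Kcnip4 fell. The changes were between 1.49-fold and 1.73-fold. The called share was 6.52% of the members, against 0.983% of all 19938 genes tested (196 genes). The higher calls were 4.35% of the members against 0.326% of all genes, and the lower calls 2.17% against 0.657%. Without the array SmoM2 3 the count of called members was 3 (Kcnd3, Kcng1 and Kcnip4), and with the mean signal of Y-linked genes as a covariate it was 1, Kcnd3.

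Promoters of Kcnd3, Kcne3, Kcnmb1, Kcnab1 and Kcnip4 are shown here because these transcripts passed the test, and that of Kcng1 is not shown. Each is taken from the farthest upstream RefSeq start of each gene on GRCm38.p6. Each runs from 250 bases before to 50 after the start, 5′ to 3′, and capitals mark a motif match on either strand.
Kcnd3, chr3:105451640-105451939, plus strand: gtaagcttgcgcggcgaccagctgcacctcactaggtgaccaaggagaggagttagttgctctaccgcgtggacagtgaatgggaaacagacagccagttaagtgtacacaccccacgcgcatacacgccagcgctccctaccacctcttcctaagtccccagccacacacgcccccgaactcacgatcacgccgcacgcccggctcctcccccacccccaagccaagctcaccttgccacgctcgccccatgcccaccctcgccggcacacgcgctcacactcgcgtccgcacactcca
Kcne3, chr7:100176420-100176719, plus strand: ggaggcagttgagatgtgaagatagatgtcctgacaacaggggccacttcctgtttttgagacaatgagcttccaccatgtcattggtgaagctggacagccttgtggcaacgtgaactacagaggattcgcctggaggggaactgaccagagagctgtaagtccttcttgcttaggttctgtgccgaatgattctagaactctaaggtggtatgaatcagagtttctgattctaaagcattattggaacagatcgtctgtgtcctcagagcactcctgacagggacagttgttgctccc
Kcnmb1, chr11:33962763-33963062, plus strand: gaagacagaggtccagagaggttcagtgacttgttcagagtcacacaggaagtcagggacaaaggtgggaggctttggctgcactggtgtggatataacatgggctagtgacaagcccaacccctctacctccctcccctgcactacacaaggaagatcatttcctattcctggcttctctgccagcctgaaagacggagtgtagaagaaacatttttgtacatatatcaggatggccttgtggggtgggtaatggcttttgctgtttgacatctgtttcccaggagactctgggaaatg
Kcnab1, chr3:64948962-64949261, plus strand: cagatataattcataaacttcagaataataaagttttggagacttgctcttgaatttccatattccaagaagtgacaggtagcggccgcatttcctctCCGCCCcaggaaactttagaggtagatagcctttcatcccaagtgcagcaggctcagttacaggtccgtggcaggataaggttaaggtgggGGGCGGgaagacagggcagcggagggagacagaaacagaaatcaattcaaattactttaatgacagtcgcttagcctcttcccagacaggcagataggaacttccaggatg
Kcnip4, chr5:49285610-49285909, minus strand: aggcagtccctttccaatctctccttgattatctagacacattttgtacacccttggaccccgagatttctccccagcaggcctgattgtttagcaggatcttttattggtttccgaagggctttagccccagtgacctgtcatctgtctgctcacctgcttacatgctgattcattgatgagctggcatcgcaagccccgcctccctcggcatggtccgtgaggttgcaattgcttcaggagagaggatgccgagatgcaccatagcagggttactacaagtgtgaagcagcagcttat

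The motifs searched on both strands were TATAAA, the GC box GGGCGG, the forkhead motif GTAAACA, the Gli motif GACCACCCA and the CArG box, which serum response factor binds. Among these 5 windows, matches were found in that of Kcnab1 alone, for GGGCGG on each strand. The table also holds later starts of these genes, and the second start of Kcne3 had GGGCGG 2 times and the third of Kcnab1 had TATAAA. The table held 95 promoters of 70 member genes, and GGGCGG stood in 47.4% of them, against 35.7% of all 32851 promoters. TATAAA stood in 5.26% of the members' promoters and in 13.6% of all promoters. GTAAACA, GACCACCCA and the CArG box stood in 0 of the members' promoters and in 3.65%, 0.253% and 1.63% of all promoters. The Kcnd3 window had 64% G and C with 25 CG pairs, and the Kcnmb1 window 49.7% with 1 CG pair. Over the 95 promoters of members the medians were 58% and 9 CG pairs, and over all promoters they were 52.7% and 7 CG pairs.

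**Figure D1:**
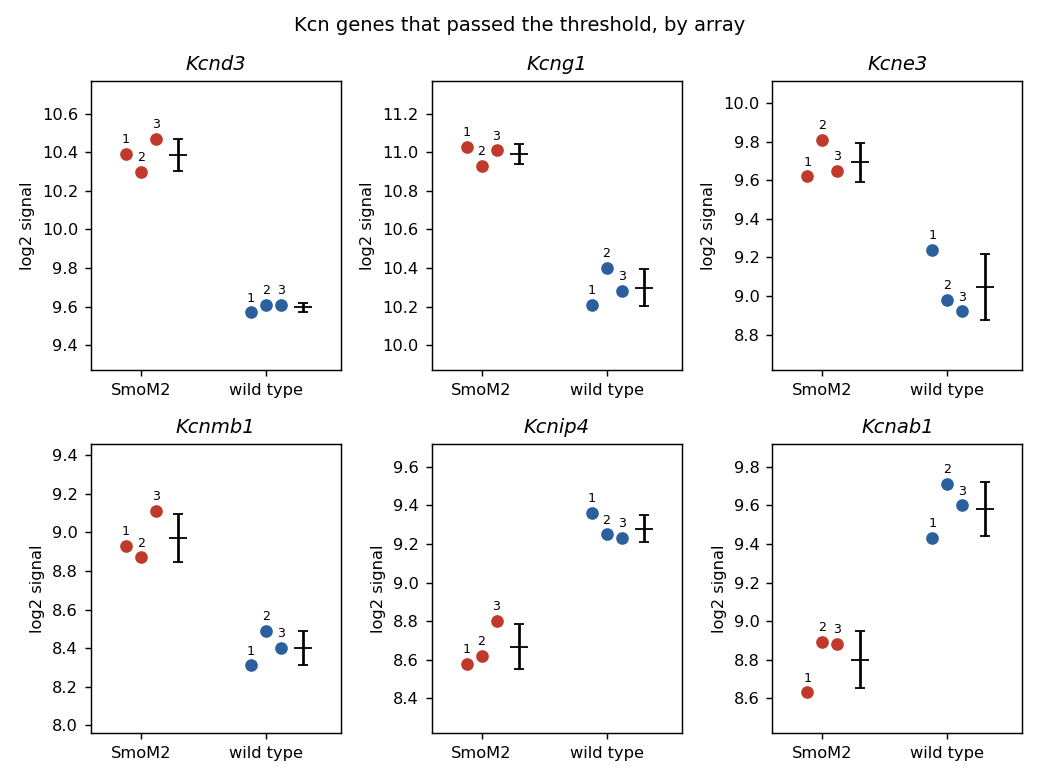
Log2 signal of the 6 called Kcn genes on each array, with SmoM2 at the left and wild type at the right of each panel. Numbers are replicates, bars are the mean ± SD of 3 arrays, all panels span the same log2 range, and the groups do not overlap in any panel.

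Kcnd3, a pore-forming subunit of fast inactivating voltage-gated channels, stood at 10.39, 10.30 and 10.47 (log2 signal) in the SmoM2 arrays, against 9.57, 9.61 and 9.61 in wild type. Every SmoM2 array lay well above every wild type array. The change was 0.79 on the log2 scale (SE 0.07), or 1.73-fold (probe set 10495083, adjusted p = 0.00197). It passed in all 6 fits that left out 1 array, with adjusted p from 0.00299 to 0.0191, and with the Y-linked covariate (adjusted p = 0.032).

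Kcng1 encodes a subunit that forms no channel alone and joins Kcnb pore subunits, changing their gating. Its signal was 11.03, 10.93 and 11.01 in SmoM2, against 10.21, 10.40 and 10.28 in wild type. The groups were clearly apart, with a change of 0.70 (SE 0.07), or 1.62-fold (probe set 10489958, adjusted p = 0.00401). Adjusted p stayed between 0.00857 and 0.0453 when 1 array was left out, and was 0.0714 with the Y-linked covariate.

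Kcne3 encodes a small membrane protein with 1 span that keeps Kcnq1 channels open in epithelia and also binds other voltage-gated subunits. It stood at 9.62, 9.81 and 9.65 in SmoM2, against 9.24, 8.98 and 8.92 in wild type. Wild type 1 was the highest of its group and still below every SmoM2 array. The change was 0.65 (SE 0.10), or 1.57-fold (probe set 10555297, adjusted p = 0.0194). The call was lost without SmoM2 1, SmoM2 3 or wild type 2 (adjusted p = 0.0521, 0.095 and 0.0801) and with the Y-linked covariate (adjusted p = 0.0505). Its epithelial partner Kcnq1 was at 8.46 ± 0.17 in SmoM2 and 8.41 ± 0.11 in wild type (SD, n = 3; limma adjusted p = 0.926).

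Kcnmb1 encodes the beta subunit of smooth muscle that makes large-conductance calcium-activated channels open at lower calcium. It stood at 8.93, 8.87 and 9.11 in SmoM2, against 8.31, 8.49 and 8.40 in wild type. The groups did not overlap, and the change was 0.57 (SE 0.09), or 1.49-fold (probe set 10375137, adjusted p = 0.0199). The call was lost without SmoM2 1, SmoM2 3 or wild type 1 (adjusted p = 0.0574, 0.0989 and 0.11) and with the Y-linked covariate (adjusted p = 0.23). In the RefSeq annotation Kcnmb1 overlaps Kcnip1 on the opposite strand. The sources used here do not say which strand each probe set reads, so the signals of this pair may not be separate.

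Kcnab1, a cytosolic beta subunit that speeds the inactivation of Kcna channels, stood at 8.63, 8.89 and 8.88 in SmoM2, against 9.43, 9.71 and 9.60 in wild type. All 3 SmoM2 arrays were below all 3 wild type arrays. The change was -0.78 (SE 0.10), or 1.72-fold lower (probe set 10492402, adjusted p = 0.00948). The call was lost without SmoM2 3 (adjusted p = 0.0509) and with the Y-linked covariate (adjusted p = 0.0986).

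Kcnip4 encodes a calcium-binding protein that attaches to Kcnd channels and slows their inactivation. It stood at 8.58, 8.62 and 8.80 in SmoM2, against 9.36, 9.25 and 9.23 in wild type. The groups were apart, with a change of -0.61 (SE 0.08), or 1.53-fold lower (probe set 10529937, adjusted p = 0.0115). The call was lost without wild type 1 (adjusted p = 0.0727) and with the Y-linked covariate (adjusted p = 0.24).

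The 6 genes were also fitted with the array sets. With the set as a block, chosen after seeing the data, all 6 genes passed, with adjusted p from 0.000771 for Kcnd3 to 0.0128 for Kcnmb1, and Kcnj2 passed as well. Within the first set the 6 changes were 0.82 for Kcnd3, 0.74 for Kcng1, 0.72 for Kcne3, 0.62 for Kcnmb1, -0.85 for Kcnab1 and -0.54 for Kcnip4. Within the second they were 0.71 for Kcnd3, 0.63 for Kcng1, 0.70 for Kcne3, 0.47 for Kcnmb1, -0.68 for Kcnab1 and -0.69 for Kcnip4. In these fits of 3 arrays the lone array of a group is assumed to vary like the others, and 5 of the 6 genes passed in the first set and 2 in the second.

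As a check of the labels, Hhip, which hedgehog signals induce, was at 11.70 ± 0.03 in SmoM2 and 10.42 ± 0.07 in wild type (SD, n = 3; limma adjusted p = 0.000175), and the receptor and target Ptch1 rose by 0.48 (SE 0.07, adjusted p = 0.0174). Smo had a change of 0.35 (adjusted p = 0.154) and Nkx3-2 one of -0.12 (adjusted p = 0.648).

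Marker lists of cell types moved beside these genes. Smooth muscle markers had 5 of 14 members higher and 0 lower, among them Myocd, a coactivator of smooth muscle genes (change 0.86, SE 0.07, adjusted p = 0.00111). The other called smooth muscle markers were Actg2 (0.69), Myl9 (0.61), Synpo2 (0.59) and Acta2 (0.47), which encode contractile or cytoskeletal proteins. The log2 of the summed signal of the list ran from 14.52 to 14.72 in SmoM2 and from 14.14 to 14.21 in wild type. Signals were unlogged before summing, here and for the lists below, so the brightest genes of a list weigh most. Of 17 markers of enteric neurons and glia 4 were lower and 0 higher, namely Dcx (-1.07), Nefm (-1.01), Nefl (-0.84) and Fabp7 (-0.71). Their list had summed signals of 13.89 to 14.09 in SmoM2 and 14.13 to 14.33 in wild type. The median change of the 17 was only -0.09, and 5 were positive. Elavl3 (-0.03), Elavl4 (-0.07), Sox10 (0.11) and Ednrb (0.32) were among those not called. Epithelial markers had 7 of 13 lower and 0 higher, from Esrp1 (-0.68) and Cldn6 (-0.66) through Cdh1, Krt18 and Krt8 to Epcam and Cldn4 (both -0.48), with summed signals of 13.77 to 13.90 in SmoM2 and 14.27 to 14.43 in wild type. Mesothelial markers had 5 of 10 lower and 0 higher, among them Bnc1 (-0.72), Wt1 (-0.52) and Krt7 (-0.40). Their summed signals were 13.29 to 13.45 in SmoM2 and 13.83 to 13.85 in wild type. They share 2 keratins, Krt8 and Krt18, with the epithelial list, and these are the brightest mesothelial markers in wild type. No smooth muscle or epithelial marker was below 8.02, the 95th percentile of the wild type means of transcripts presumed absent. Of neurons and glia and of mesothelium, 1 marker each was below it. The part of these cell types in the changes of the Kcn genes was not tested. Each array measured all cells of the tissue together, so fewer cells of a type and less RNA per cell cannot be told apart.

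The lists of other cell types had few or no members past the threshold. In pancreas, Cpa1 and Gcg fell (2 of 9), and in pericytes and vascular smooth muscle Rgs5 fell (1 of 7). The median change of the 9 pancreas markers was -0.13, and 3 were positive. Gcg and Cpa1 were the brightest of them in wild type (means 12.31 and 11.03), so they weigh most in the summed signal. None of 6 markers of interstitial cells of Cajal, 10 of endothelium, 12 of skeletal and heart muscle, 6 of erythroid cells and 8 of leukocytes passed. Their median changes were -0.02, -0.15, 0.12, -0.18 and -0.17. Among the Cajal markers, Kit had a change of -0.41 (limma adjusted p = 0.0931) and Ano1 one of 0.26 (limma adjusted p = 0.165). For both genes the groups did not overlap. Log2 values of the summed signals were lower in every SmoM2 array than in any wild type array for some lists here. For pancreas they were 12.53 to 12.66 in SmoM2 and 13.08 to 13.55 in wild type. For pericytes and vascular smooth muscle they were 12.10 to 12.13 and 12.35 to 12.45. For endothelium they were 13.96 to 14.08 and 14.16 to 14.21, and for leukocytes 11.69 to 11.93 and 12.06 to 12.11. The ranges of the other lists overlapped.

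**Figure D2:**
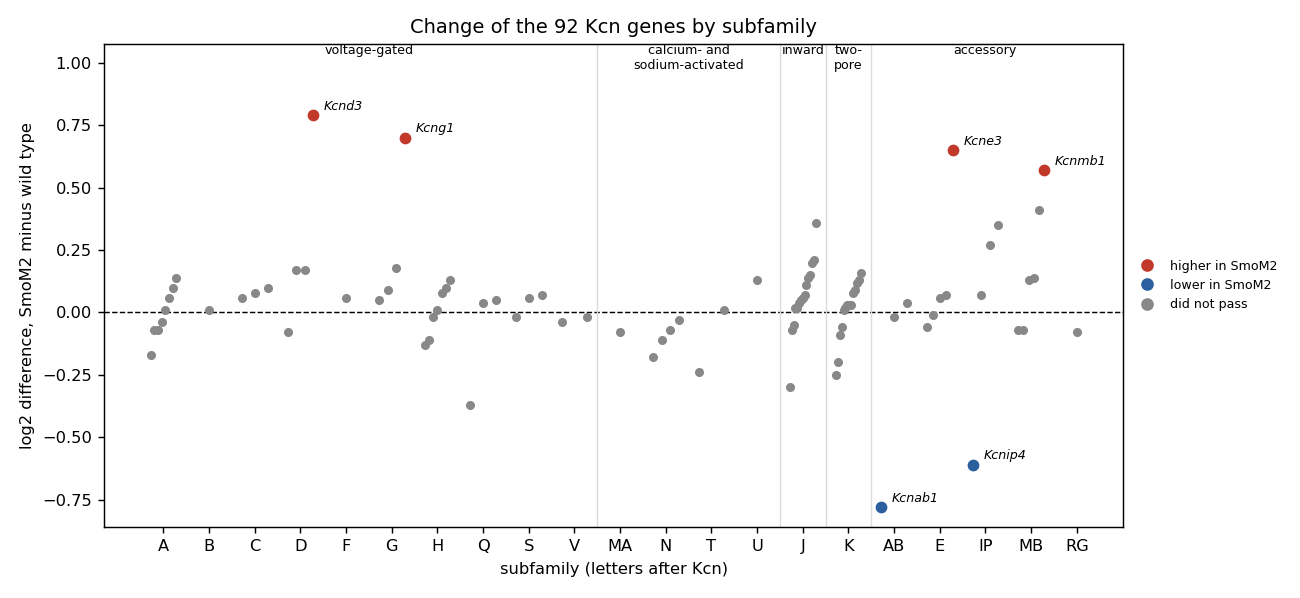
Log2 difference (SmoM2 minus wild type, 3 arrays each) of the 92 Kcn genes, grouped by the letters after Kcn; each point is 1 gene and colour marks the limma call. Of the 92 points, 76 lie within 0.2 of the line at 0, and the 6 called genes lie beyond 0.5 in voltage-gated and accessory subfamilies.

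The remaining 86 members did not pass, and most sat close to their wild type signal. The log2 change was under 0.2 in size in 76 of the 92 genes and under 0.1 in 55. The 95% confidence interval lay within 0.5 on either side of 0 in 81 of them. The median change over the 92 genes was 0.04, with 59 positive and 33 negative, beside a median of 0.00 over all genes tested, of which 50.8% were positive. That small offset turned with the setting, to -0.05 with the Y-linked covariate and -0.03 with the array sets as a block. At an unadjusted p under 0.05 there were 17 members (18.5%), 10 higher and 7 lower, against 10.5% of all genes. Every SmoM2 array lay above every wild type array in 11 members (12%, against 5.64% of all genes) and below in 9 (9.78%, against 10.1%).

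Among the 35 voltage-gated subunits, 2 rose, 0 fell and 33 did not pass. Kcnq5, which carries a slow current that damps firing, stood at 8.88, 9.05 and 9.02 in SmoM2, against 9.43, 9.41 and 9.21 in wild type. Its groups did not overlap, and its change of -0.37 (SE 0.08) had an adjusted p of 0.099. Without wild type 3 its adjusted p was 0.0475. The change of Kcnq5 was -0.22 with the Y-linked covariate, where it did not pass, -0.26 within the first array set and -0.37 within the second. Kcnh2, which carries the rapid repolarizing current of heart and gut muscle, was at 10.07 ± 0.11 in SmoM2 and 10.06 ± 0.06 in wild type (SD, n = 3), with a change between -0.17 and 0.18 at 95% confidence. Kcna3, the channel best known from lymphocytes, was at 9.74 ± 0.05 in SmoM2 and 9.78 ± 0.11 in wild type (SD, n = 3), with an interval of -0.21 to 0.13. The other Kcnd pore genes were nearer their wild type signal than Kcnd3, with Kcnd2 at a change of 0.17 (interval -0.02 to 0.36) and Kcnd1 at -0.08 (interval -0.26 to 0.09). The difference between Kcnd3 and these genes was not tested. Kcnd3os, a transcript from the opposite strand of Kcnd3, was at 9.77, 9.66 and 9.84 in SmoM2. In wild type it was at 9.61, 9.47 and 9.67 (limma adjusted p = 0.517), and the groups overlapped. Kcnd3 and Kcnd3os overlap in the RefSeq annotation, and the strand each probe set reads is not given. The signals of this pair may therefore not be separate either.

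Among the 17 accessory and regulatory proteins, 2 rose, 2 fell and 13 did not pass. The Kcnip genes encode partners of Kcnd channels, and of these 4 genes Kcnip4 alone passed; differences among them were not tested. Kcnip3, which also acts as a calcium-sensitive repressor of transcription, stood at 10.21, 10.18 and 10.40 in SmoM2, against 9.92, 9.80 and 10.02 in wild type (change 0.35, SE 0.09, adjusted p = 0.122). Kcnip1 had a change of 0.27 (SE 0.08, adjusted p = 0.223) and Kcnip2 one of 0.07 (adjusted p = 0.828).

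Of the other beta subunits of large-conductance channels, Kcnmb2, which adds inactivation, stood at 10.25, 10.08 and 10.20 in SmoM2, against 9.99, 9.63 and 9.66 in wild type. Wild type 1 came close to the SmoM2 arrays without reaching them, and the change of 0.41 (SE 0.10) had an adjusted p of 0.125. Kcnmb4, a beta subunit of neurons, had a change of -0.07 (adjusted p = 0.826). Kcnma1, the pore subunit of these channels, was at 7.65, 7.53 and 7.73 in SmoM2, against 7.69, 7.63 and 7.83 in wild type, below the dim limit of 8.02 on every array, and its change of -0.08 had an interval of -0.26 to 0.11. Its other probe set was at 7.63, 7.50 and 7.78 in SmoM2 and 7.74, 7.47 and 7.55 in wild type. Kcne1l, an X-linked relative of Kcne3, was at 9.35 ± 0.06 in SmoM2 and 9.41 ± 0.02 in wild type (SD, n = 3).

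None of the 15 inward rectifiers passed in the fit as reported, with 12 positive and 3 negative changes. Kcnj8, the pore of the ATP-sensitive channel of vessel walls, stood at 9.14, 8.95 and 9.12 in SmoM2, against 9.56, 9.41 and 9.15 in wild type. Wild type 3 was almost level with SmoM2 1, and the change of -0.30 (SE 0.11) had an adjusted p of 0.324. It was -0.02 within the first array set, -0.53 within the second and -0.09 with the Y-linked covariate. Abcc9, the sulfonylurea receptor that pairs with it, had a change of -0.21 (adjusted p = 0.663). Kcnj2, which holds the resting voltage in muscle and endothelium, was at 8.68, 9.14 and 8.80 in SmoM2 and 8.64, 8.53 and 8.38 in wild type. SmoM2 2 was the highest and SmoM2 1 lay just above wild type 1, with a change of 0.36 (SE 0.12, adjusted p = 0.289). With the array sets as a block its change was 0.46 and passed (adjusted p = 0.0188), which made 7 called members. Kcnj2 also passed with the replicate block (adjusted p = 0.0433) and with array weights (adjusted p = 0.0421), but not with the Y-linked covariate (adjusted p = 0.556). The fit with array weights, itself uncertain, called Kcnj8, Kcnj9, Kcnj11 and Kcnj15 as well.

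None of the 14 tandem-pore channels and none of the 8 calcium- and sodium-activated and related subunits passed. Kcnk1, a weak background channel, stood at 9.52, 9.62 and 9.56 in SmoM2, against 9.88, 9.70 and 9.70 in wild type (change -0.20, SE 0.08, adjusted p = 0.368). Kcnk16, known from pancreatic islets, had a change of -0.25 (SE 0.08, adjusted p = 0.28). Kcnk3, an acid-sensitive background channel, was at 9.44 ± 0.18 in SmoM2 and 9.40 ± 0.11 in wild type (SD, n = 3), with an interval of -0.19 to 0.26 for its change. The sodium-activated Kcnt2 had a change of -0.24 (SE 0.09, adjusted p = 0.36) at a signal below the dim limit. Kcnn3, a small-conductance calcium-activated channel, had one of -0.18 (SE 0.08, adjusted p = 0.494), and all 4 Kcnn genes had negative changes, from -0.18 to -0.03.

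**Figure D3:**
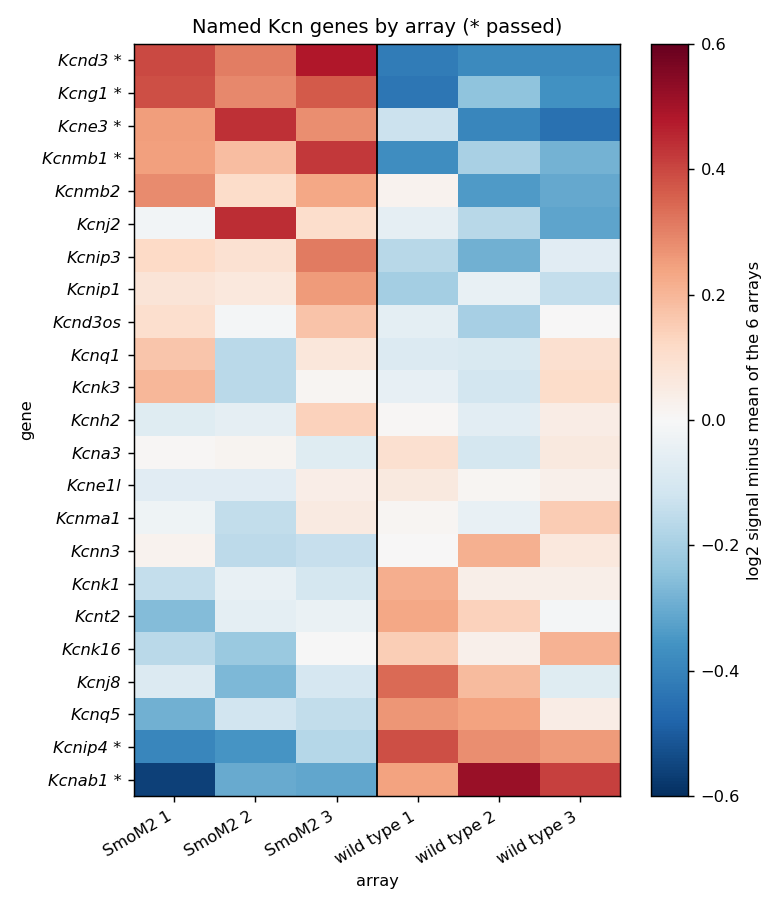
Log2 signal of 23 Kcn genes on each array, minus the mean of the 6 arrays, with SmoM2 arrays at the left; red is above and blue below that mean, and an asterisk marks the 6 called genes. Kcnj2 is highest in SmoM2 2, and Kcnj8 in wild type 3 is close to its SmoM2 values.

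Wild type signals are given by subfamily as a description, since probe sets differ in how strongly they bind and their signals do not rank transcripts. Olfactory and vomeronasal receptor genes, 1194 in all, stood in for transcripts presumed absent from this organ. The 95th percentile of their wild type means, 8.02, is called the dim limit, and 63 of the 92 members had a mean of the 6 arrays above it. All 6 called genes were among the 63. Members that did not exceed it had a median change of 0.04 and ran from -0.24 to 0.15, so a change in a gene with so little signal may not show.

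The highest wild type means were 10.30 for Kcng1, 10.06 for Kcnh2 and 9.91 for Kcnip3, and the next were Kcna3, Kcnmb2 and Kcnk1. Voltage-gated means ran from 6.55 for Kcna4 to 10.30, with 26 of 35 genes above the dim limit. By subfamily, Kcna genes had a median of 8.22, Kcnc 8.27, Kcnh 8.19, Kcnq 8.41 and Kcns 8.09. The 4 Kcnd symbols, Kcnd3os included, had a median of 8.96, and the 4 Kcng genes one of 8.88. Inward rectifiers were mostly dim, with 5 of 15 above the limit and a median of 7.89, from 6.90 for Kcnj1 to 9.37 for Kcnj8. Tandem-pore channels had 13 of 14 above it, from 7.58 for Kcnk18 to 9.76 for Kcnk1. Among accessory genes 12 of 17 were above it, and the 6 Kcnmb symbols, 2 opposite strand transcripts included, had a median of 8.89. The Kcne genes had 2 of 5 above it, Kcne3 and Kcne1l. Single members of their subfamilies were Kcnb2 at 8.52, Kcnf1 at 7.74, Kcnma1 at 7.72, Kcnu1 at 7.11 and Kcnrg at 7.55.

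**Figure D4:**
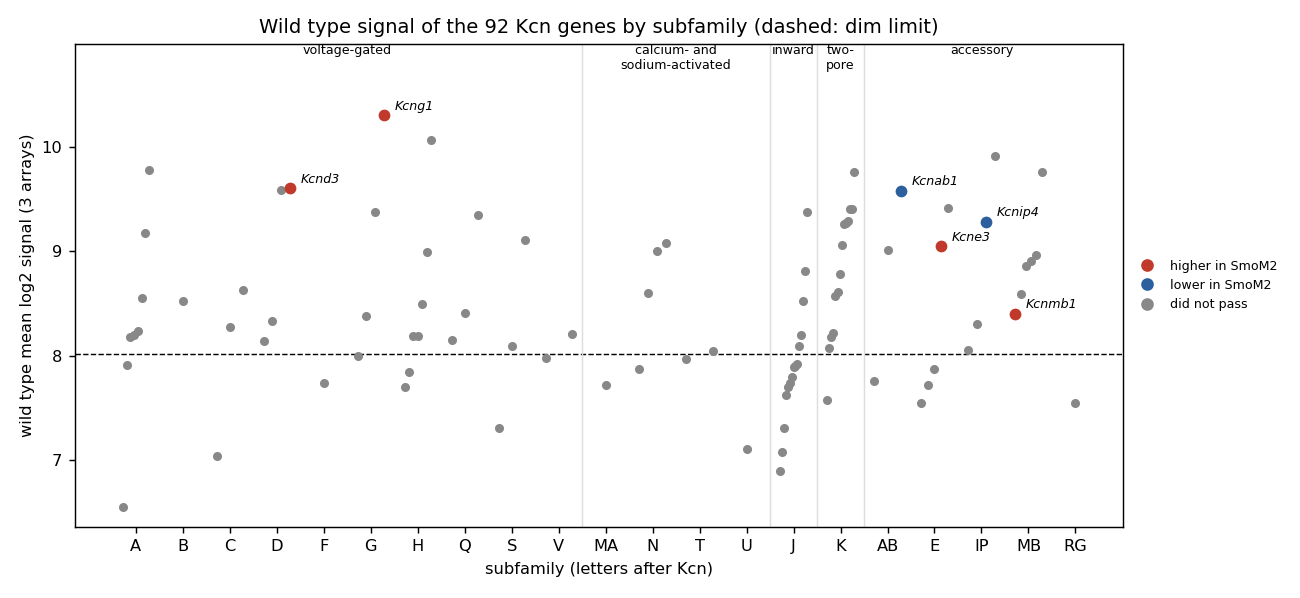
Mean log2 signal of the 92 Kcn genes in the 3 wild type arrays, grouped by the letters after Kcn, with the dim limit of 8.02 as a dashed line and colour for the limma call. Most inward rectifiers (J) lie below the line and all 6 called genes above it.

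Arrays of 1 group differed in the members as a whole. SmoM2 1 was the highest SmoM2 array for 55 of the 92 genes and SmoM2 2 the lowest for 66, and wild type 3 was the highest wild type array for 59 and wild type 2 the lowest for 59. The medians over the members were 8.50, 8.28 and 8.39 in SmoM2 1 to 3 and 8.25, 8.31 and 8.34 in wild type 1 to 3. Olfactory and vomeronasal genes were also highest in SmoM2 1 and wild type 3 and lowest in SmoM2 2 and wild type 2, with medians of 6.40, 6.16 and 6.24 in SmoM2 and 6.28, 6.18 and 6.32 in wild type. The part of this in single changes was not tested beyond the fits with the array sets.

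Genes that work beside potassium channels had few members past the threshold. None of 11 partners with other symbols passed, among them Lrrc55 at a change of 0.18 (adjusted p = 0.617) and Abcc9. None of 9 cyclic-nucleotide-gated and pacemaker channels passed, with Hcn2 at 0.17 (adjusted p = 0.596) and Cngb1 at 0.14 (adjusted p = 0.779). Of 14 genes of calcium entry and release 1 fell, the release channel Itpr2 (change -0.48, SE 0.08, adjusted p = 0.0286), and 0 rose. Their median change was -0.12, and their mean log2 signal per array ran from 9.26 to 9.32 in SmoM2 and from 9.37 to 9.45 in wild type. The log2 of their summed signal, the measure given for the cell types, ran from 13.83 to 13.95 and from 13.95 to 14.11. Those ranges met at the rounding shown. Of 9 genes for chloride channels and sodium transport 1 fell, the pump subunit Atp1b2 (change -0.42, SE 0.07, adjusted p = 0.0258), and 0 rose. A related pump subunit, Atp1b1, had a change of -0.49 (SE 0.10, adjusted p = 0.0663). The median change of these 9 genes was -0.25, and their mean log2 signal ran from 9.62 to 9.78 in SmoM2 and from 9.86 to 9.91 in wild type. The log2 of their summed signal ran from 13.53 to 13.71 and from 13.71 to 13.80, ranges that also met at this rounding. None of 11 voltage-gated sodium channel genes passed, with Scn7a at -0.40 (adjusted p = 0.112) and Scn9a at -0.17 (adjusted p = 0.596), and 8 of the 11 lay below the dim limit.

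**Figure D5:**
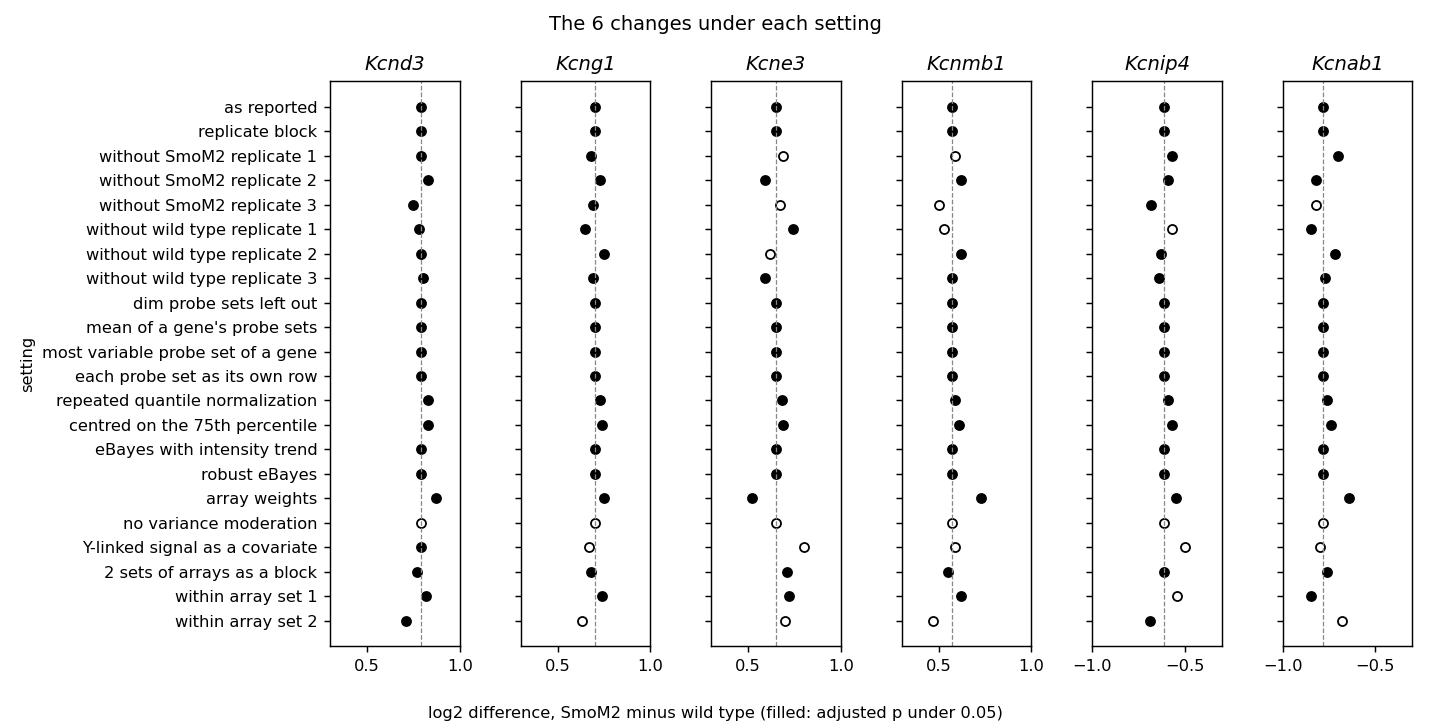
Log2 difference (SmoM2 minus wild type) of the 6 called Kcn genes under each setting of the fit, filled where the adjusted p was under 0.05 and open where it was not; the dashed line is the value as reported. Kcnd3 is filled in every setting but the one without variance moderation, and no point crosses 0.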

How the data were processed

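The deposited file holds log2 signals for 35556 probe sets on 6 arrays, made by the authors with RMA, per the submitters' processing notes, which also name affy. Per the labels' protocols, total RNA was extracted with Trizol and biotinylated. Neither software versions nor a genome build is given in the sources used here. By construction, RMA equalises the distributions of the arrays, which hides a change in total RNA, and shrinks differences at low signal. The lowest value was 3.79 and the highest 14.72. Having 3 arrays a group limits precision.

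Names came from the platform annotation, in which 21789 probe sets had 1 symbol, 1621 several, and the others are unnamed here. Gene identifiers matched 21698 of them to RefSeq (GRCm38.p6), and 0 symbols changed. Each of 19938 genes was represented by its brightest probe set on average over the 6 arrays.

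The model was fitted to these values in R 4.3.3 with limma 3.58.1, using lmFit and eBayes. Adjusted p-values are Benjamini-Hochberg values over the 19938 genes, and 0.05 was the threshold. Changes are SmoM2 minus wild type with moderated SE. With 3 against 3 arrays, the smallest two-sided p of an exact permutation test is 0.1. The fit was tested on simulated data with independent noise for each gene and array. That simulation had no array sets, Y-linked differences or unequal array spread, so it cannot vouch for the calls made here. The text names each called member, the 8 largest changes in each direction, the 10 highest wild type means, and further genes listed in advance for muscle, vessels and epithelium. Other genes, such as Kcnd1, Kcnd2, Kcnip2, Kcnmb4, Kcna4 and the extremes of subfamilies, were named after their values were seen. The members and lists were chosen with earlier results of these data known. Alternatives were a block for the replicate number, each array left out in turn, a filter that kept probe sets with a mean above 8.58, the median of all probe sets and thus stricter than the dim limit of 8.02, other choices of probe set, 2 other normalizations, 4 other treatments of variance or array weight, and the Y-linked signal as a covariate. A term for the 2 array sets, and each set alone, were added after seeing the data.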

Additional observations from a re-analysis of the deposited data

How the results depend on the processing

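The 6 called members kept their direction under all 21 alternatives, which non-overlapping groups fix in most of them. The count of 6 held (all 6 the same genes) with each other choice of probe set, the filter on dim probe sets (40 members and 11857 genes kept), both other normalizations, the intensity trend and robust eBayes. It was 3 to 7 when 1 array was left out, 28 with array weights, 1 with the Y-linked covariate and 2 within the second array set. Without variance moderation it was 0 by the plain linear model in R, with 16 members at an unadjusted p under 0.05, and 0 over all genes, with 1873. The array weights had not fully converged, so that count is uncertain. These weights were 0.33, 0.49 and 6.02 for SmoM2 1 to 3, so the SmoM2 side of that fit rested mostly on SmoM2 3. The count over all genes was 32 to 247 when 1 array was left out, 120 with centring on the 75th percentile, 336 with the intensity trend, 4110 with array weights and 22 with the Y-linked covariate. It was 324 with the array sets as a block, and 107 and 66 within the sets. The median change of the members was -0.05 with the Y-linked covariate. With the 99th percentile as the dim limit, 32 members lay above it. The cause of these shifts was not tested.

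With the replicate block, 10 members and 698 genes passed. Deviations of same-numbered arrays from their group means correlated at -0.1, 0.52 and 0.06, and not every array correlated best with its own number, so the numbers were not taken to pair the samples.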

Other observations

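Some uncalled member genes lie side by side on a chromosome, with no protein-coding gene between them in the RefSeq annotation. Kcnj2 and its neighbour Kcnj16 had changes of 0.36 and -0.05, Kcnj9 and Kcnj10 had 0.21 and 0.11, and Kcnk5 and Kcnk16 had -0.09 and -0.25. In the row of Kcna genes on chromosome 3, the changes were -0.04 for Kcna3, 0.10 for Kcna2 and 0.01 for Kcna10. Overlapping pairs were Kcnd3 with Kcnd3os (0.79 and 0.17), Kcnmb1 with Kcnip1 (0.57 and 0.27), and Kcnmb4 (-0.07) with Kcnmb4os1 and Kcnmb4os2 (0.14 and -0.07). The strand each probe set reads is not given, so signals within these pairs may not be separate.

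The 2 probe sets of Kcna2 had changes of opposite sign, 0.10 (SE 0.08) and -0.07 (SE 0.08), as had those of Kcnma1, -0.08 (SE 0.08) and 0.05 (SE 0.10), and those of Kcnh8 were at -0.11 and -0.03. By its number the second Kcnma1 probe set belongs to another chromosome's run, so the locus it reports is uncertain.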
